A study of Mus musculus with 4 samples.

Results

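Open chromatin was described around 10 genes for transcription factors that set limb and skeletal position: Pitx1, Tbx3, Tbx4, Tbx5, Tbx15, Tbx18, Meis1, Meis2, Shox2 and Lmx1b. The genes were chosen by name, and a peak was counted for a gene when it lay in the gene or within 100 kb of either end (RefSeq, GRCm38.p6). They are 10 of 21883 protein-coding genes, and their windows held 286 of the 170558 sites of the genome, a site being peaks of any library joined where they shared at least 1 bp. The windows of Tbx3 and Tbx5, which are neighbours on chromosome 5, had 7 sites in common, and these were counted once in every sum over the genes.

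Limb buds receive their identity from transcription factors that act in bands and fields of the embryo. Pitx1 and Tbx4 belong to the programme of the hindlimb and Tbx5 to that of the forelimb, Meis1 and Meis2 are homeodomain factors of the part of the limb nearest the trunk, and Lmx1b gives the limb its dorsal side. Tbx3, Tbx15, Tbx18 and Shox2 shape the limb field and the cartilage models of the skeleton, and many of these genes are controlled by elements that lie far from their promoters.

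The study compared chondrocytes before and after expansion in culture, during which they lose the features of cartilage cells (dedifferentiation). Knee cartilage of C57BL/6 mice aged 0 to 4 days was the source of the cells, so that all groups share the strain, the hindlimb origin and the absence of any named allele or agent. P0 chondrocytes (2 libraries) were primary cells kept in vitro for under 24 h, and P8 chondrocytes (2 libraries) had been replated through 8 passages, each after the cell number had doubled. Passage number and time in culture changed together and cannot be told apart. In ATAC-seq the Tn5 transposase inserts adaptors where DNA is accessible, and the authors called peaks with MACS2 in each library. The peak names separate the libraries but carry no replicate number of the labels, and the libraries are therefore called A and B within a passage. Nothing in the labels says that the libraries of a passage came from separate cultures or animals, so p-values measure only the spread between these libraries. With 2 libraries against 2, an exact two-sided permutation test cannot go below p = 0.333, and no difference between the passages could pass a test. A gene or site was therefore called higher at a passage when both of its libraries lay above both libraries of the other passage.

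On the standard chromosomes, the P0 libraries held 144356 and 118849 peaks and the P8 libraries 88578 and 98647. The lowest local background of the peak caller lay at 1.42 tags (library A) and 1.19 tags (library B) for P0. For P8 it lay at 1.02 tags (library A) and 0.979 tags (library B). Sequencing depth itself was not measured, and read totals were not used here. Depth is read below from this background alone, and in that sense both P8 libraries are called shallower. A peak within 1 kb of a gene end was present at all 8 chondrocyte marker genes in both P0 libraries and at 7 of the 8 in both P8 libraries. Fibroblast markers had such a peak at 4 of 5 genes in each P0 library, against 3 (library A) and 2 (library B) at P8. Of the 4 blood markers, 2 had a peak in each P0 library (Spi1 and Cd68) and 1 in each P8 library (Spi1), with none at Ptprc or Csf1r. Endothelial markers had a peak at 2 of 4 genes in every library (Kdr and Tek), with none at Pecam1 or Cdh5. Skeletal muscle markers had one at 1 or 2 of 4, at Myod1 in every library and at Myog in P0 library A, with none at Myf5 or Pax7. Over all protein-coding genes, 58.2% had such a peak in all 4 libraries. The part of other cell types in the results below was not tested.

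The gene ends of the 10 factors were examined first, since many promoters lie there, though an end can also be where transcripts stop. A peak within 1 kb of a gene end was found in all 4 libraries at 7 of the 10 genes (Pitx1, Tbx3, Tbx4, Tbx18, Meis1, Meis2 and Shox2), against 58.2% of all protein-coding genes. Tbx15 was the 1 gene with such a peak in both P0 libraries and neither P8 library, a pattern found at 3.98% of all protein-coding genes. Lmx1b had a peak there in P0 library A and P8 library B alone, with fold enrichments of 3.0 and 3.47. Tbx5, the forelimb factor, was the 1 gene without a peak at either end in any library, which held for 30.9% of all protein-coding genes. The limits of a gene in the RefSeq table take in all its transcripts, so that a start inside the gene is not an end. At Pitx1 the only such site held by all 4 libraries lay 468 bp below the lower end and was nearest to Catsper3. At Tbx4 and Meis2 it lay over an end, while the start used for the promoter stretches below lies inside the gene. The count of genes with a peak at an end is therefore not a count of open promoters.

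Promoter sequences are printed for 4 genes to set promoters under a peak in every library (Meis1 and Tbx18) beside those under a peak in P0 libraries only, in both (Shox2) or in library A (Tbx4). The RefSeq promoter table (GRCm38.p6) matched 6 of the 10 genes (Tbx4, Tbx18, Meis1, Meis2, Shox2 and Lmx1b), and Pitx1, Tbx3, Tbx5 and Tbx15 were not matched. Each stretch is the 250 bases before the start of the gene, written 5′ to 3′ on the strand of the gene, and capitals mark the bases under the peak of each library that had a peak in the stretch. The stretch lies at chr11:19018970-19019219 on the minus strand for Meis1, at chr9:87731261-87731510 on the minus strand for Tbx18, at chr3:66981772-66982021 on the minus strand for Shox2 and at chr11:85896515-85896764 on the plus strand for Tbx4.
Meis1: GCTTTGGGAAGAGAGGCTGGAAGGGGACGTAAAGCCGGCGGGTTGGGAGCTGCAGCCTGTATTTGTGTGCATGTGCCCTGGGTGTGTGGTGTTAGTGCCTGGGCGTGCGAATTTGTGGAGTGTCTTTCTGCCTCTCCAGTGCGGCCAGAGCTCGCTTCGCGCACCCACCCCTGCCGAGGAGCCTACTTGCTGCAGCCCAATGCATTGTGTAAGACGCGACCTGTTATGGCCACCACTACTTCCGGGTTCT
Tbx18: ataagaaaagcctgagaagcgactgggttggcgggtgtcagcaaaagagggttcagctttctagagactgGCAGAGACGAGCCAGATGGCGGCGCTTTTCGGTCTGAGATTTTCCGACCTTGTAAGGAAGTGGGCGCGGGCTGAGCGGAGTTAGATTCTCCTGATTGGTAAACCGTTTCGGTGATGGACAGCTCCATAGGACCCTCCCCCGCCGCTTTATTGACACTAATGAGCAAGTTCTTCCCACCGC
Shox2: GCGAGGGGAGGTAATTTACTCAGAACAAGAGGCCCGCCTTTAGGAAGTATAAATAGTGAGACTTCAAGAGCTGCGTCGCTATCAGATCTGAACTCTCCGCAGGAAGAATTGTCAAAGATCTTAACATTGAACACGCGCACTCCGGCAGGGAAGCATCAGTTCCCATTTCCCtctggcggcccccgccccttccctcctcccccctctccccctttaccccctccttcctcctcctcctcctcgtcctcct
Tbx4: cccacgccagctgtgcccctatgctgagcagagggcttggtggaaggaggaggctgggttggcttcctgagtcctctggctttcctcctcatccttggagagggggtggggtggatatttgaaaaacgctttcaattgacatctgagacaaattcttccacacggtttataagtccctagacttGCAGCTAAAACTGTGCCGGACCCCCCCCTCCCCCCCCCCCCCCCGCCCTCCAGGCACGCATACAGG

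All 250 bases of the Meis1 promoter were under a peak in each of the 4 libraries, with fold enrichments of 6.84 and 8.20 at P0 and 8.40 and 7.30 at P8. At Tbx18, 180 bases were under the peaks of all 4 libraries, whose fold enrichments lay between 6.66 and 6.83. The Shox2 promoter differed between the passages: 187 bases in P0 library A and 171 in P0 library B were under a peak, against 0 in both P8 libraries. These P0 peaks belong to a site that all 4 libraries held and that is nearest to another gene, Rsrc1. There the P8 peaks stopped short of the stretch while their fold enrichment was higher (5.40 and 5.13, against 4.20 and 4.16 at P0). The Tbx4 promoter had 66 bases under a peak in P0 library A, with a fold enrichment of 3.44, and 0 in the other 3 libraries. The Meis2 stretch was under a peak in P0 library A alone, with a fold enrichment of 2.83, and the Lmx1b stretch in no library.

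The 6 stretches were between 47.6% GC (Meis2) and 65.2% GC (Lmx1b), against a median of 52.4% over 32841 promoter stretches of the same length. They held from 6 CpG dinucleotides (Tbx4) to 19 (Lmx1b), against a median of 6. Meis1 had 13 and Tbx18 had 15, so that neither GC nor CpG content put the promoters with a peak in all 4 libraries above Lmx1b, which had none. Both strands were searched for letters that factors of these families are known to bind. The T-box motif AGGTGTGA was found in 1.12% of all stretches, the Meis motif TGACAG in 15.9%, the Pitx motif TAATCC in 6.25%, the homeodomain motif TAATTA in 4.84% and the AP-1 motif TGANTCA in 6.75%. None of the 5 motifs was found in the 6 stretches of these genes, which says only that these letters are not in these 250 bases.

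The number of peaks around the genes was compared between the passages next. The windows together held 254 peaks (library A) and 200 peaks (library B) at P0, and 127 peaks (library A) and 154 peaks (library B) at P8. Both P0 libraries lay above both P8 libraries. The means were 227 ± 38.2 and 140.5 ± 19.1 (SD, n = 2 libraries each), a ratio of P0 over P8 of 1.62 ± 0.35 (exact permutation test p = 0.333, the smallest possible). Over all standard chromosomes the ratio was 1.41 ± 0.22. Both SDs come from the spread between the same libraries, which the windows and the genome share. They therefore cannot judge the difference between these ratios, which was not tested. Peaks covered 65037 and 49734 bp of the windows at P0 and 24064 and 32139 bp at P8, giving a ratio of 2.04 ± 0.57, against 1.66 ± 0.32 over the genome (both p = 0.333, exact permutation test). The number and the width of peaks can both depend on depth, which by the background was lower at P8. Within P8 the order was the opposite. Library A had the higher background (1.02 against 0.979 tags) but fewer peaks (88578 against 98647) and a smaller median width (178 against 189 bp). The part of depth in these ratios was not tested.

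**Figure D1:**
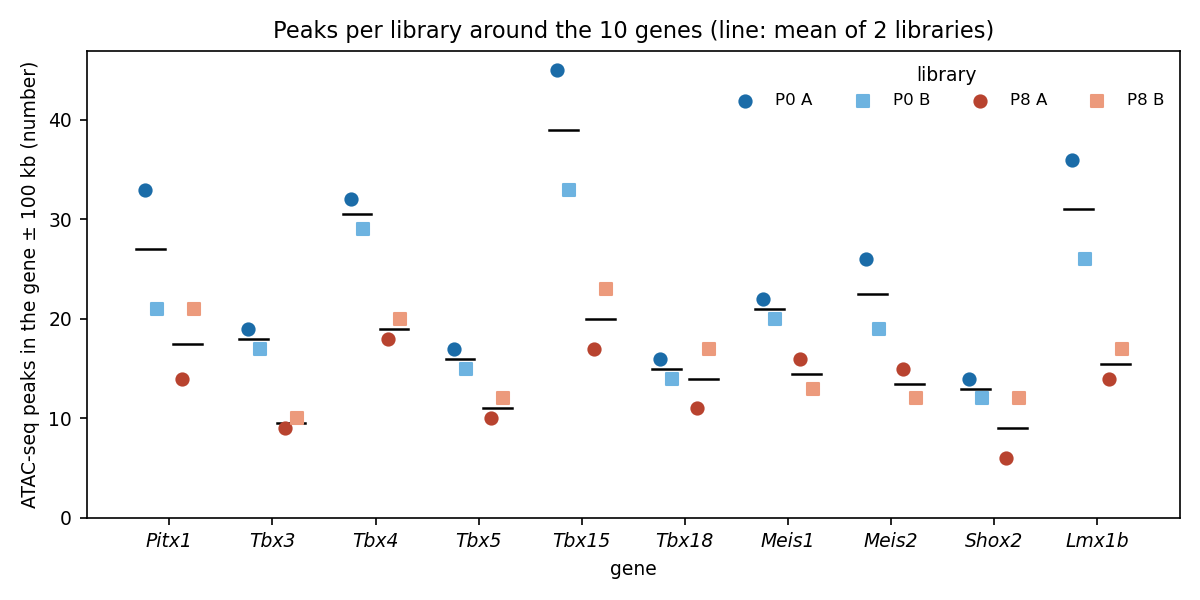
Number of ATAC-seq peaks in each gene and 100 kb on either side (y axis) for the 10 genes (x axis). Points are single libraries, coloured by passage, and lines are means of 2 libraries. Both P0 points lie above both P8 points for 7 genes, and the passages overlap for Pitx1, Tbx18 and Shox2.

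By gene, the number of peaks was higher at P0 for 7 of 10 genes, overlapped between the passages for 3, and was higher at P8 for 0. The background for this count was high: of 21019 protein-coding genes with a peak in their window, 56.1% were higher at P0 and 3.35% at P8. With peaks kept only if they would still have been called in the shallowest library, 7 of the 10 genes were again higher at P0, against 54.5% of all genes. The median ratio of P0 over P8 was 1.57 over the 10 genes and 1.30 over the 15939 genes with an average of at least 10 peaks.

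A threshold on the strength of a peak moved these values. With peaks of a −log10 p of at least 10, the windows held 111 and 84 peaks at P0 and 42 and 49 at P8, a ratio of 2.14 ± 0.48 (exact permutation test p = 0.333) against 1.55 ± 0.28 over the genome. All 10 genes were then higher at P0, with ratios from 1.82 (Lmx1b) to 2.50 (Meis2), against 66.2% of 19954 genes with such a peak. The p-value of a peak depends on depth as well as on enrichment, and the P8 libraries were shallower.

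Sites were then sorted by the libraries that held a peak. Both P0 libraries but neither P8 library had a peak at 45 of 286 sites (15.7%, 95% Wilson interval 12.0 to 20.4), against 17.1% of all sites. The reverse, a peak in both P8 libraries but neither P0 library, was found at 1 site (0.35%, 0.0617 to 1.95), against 1.82% of all sites. These counts depend on how peaks are joined. With a reciprocal overlap of at least 50%, P8 alone held 8 of 419 sites (1.91%), against 3.17% of all sites. P0 alone then held 53 of 419 (12.6%), against 12.9%. All 4 libraries had a peak at 86 sites (30.1%, 25.0 to 35.6), against 32.4%. Intervals cover counting error only. P0 library A alone held 65 sites (22.7%, 18.3 to 27.9), against 17.5% of all sites. Sites without a P0 peak made up 7.34% (4.85 to 11.0), against 11.7% of all sites. With 1 library left in a passage, sites of P0 alone came to 78 of 244 (32.0%) without P0 library A, against 28.7% of all sites, and to 114 of 276 (41.3%) without P0 library B, against 37.2%. Sites of P8 alone came to 7 of 244 (2.87%) without P0 library A, against 4.81% of all sites, to 10 of 277 (3.61%) without P8 library A, against 6.91%, and to 14 of 280 (5.0%) without P8 library B, against 7.6%.

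Sites found at P0 alone were weaker and narrower than sites found in every library, around these genes as over the genome. A site spans all its joined peaks, so a site of more libraries tends to be wider by construction. A weak site is also more likely to miss the call at P8, so the sorting itself puts weak sites among those of P0 alone. The sites of P0 alone had a median fold enrichment of 4.97 and 5.03 in P0 libraries A and B and a median width of 247 bp. The sites in all 4 libraries had medians of 6.68 and 6.65 at P0 and 5.49 and 6.01 at P8, and a width of 419 bp. Over all sites of the genome, those of P0 alone had medians of 4.97 and 5.03 and a width of 221 bp. Those in all 4 libraries had medians of 8.28 and 8.09 at P0 and a width of 457 bp. The sites of P0 alone ranged in fold enrichment from 2.89 to 12.7, and 8 of the 45 had a −log10 p of at least 10 in both P0 libraries. The matching share over the genome was not computed, and this threshold depends on depth. Under that threshold, 37 of 119 sites (31.1%, 23.5 to 39.9) were found at P0 alone, against 20.9% of all sites, and 29 of the 37 had a weaker peak at P8 while 8 had none. Under the same threshold 0 of 119 sites were found at P8 alone, against 1.59% of all sites. The limit that a count of 0 allows (3 counts) is 2.52%, and the upper end of the Wilson interval is 3.13%.

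**Figure D2:**
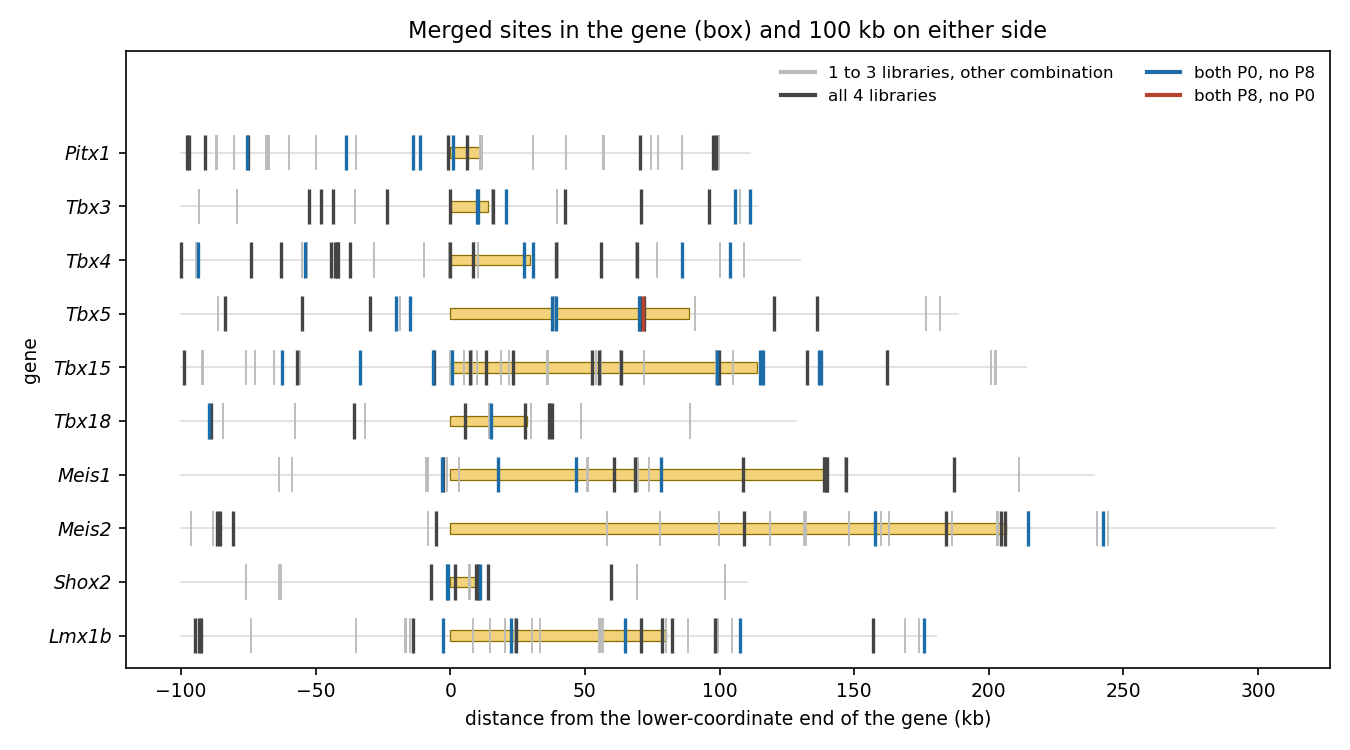
Sites along each gene (box) and 100 kb on either side, by distance from the end of the gene with the lower coordinate (x axis, kb). Marks are coloured by the libraries that held a peak. The 86 sites in all 4 libraries and the 45 sites of P0 alone are spread over all 10 windows, and the 1 site of P8 alone lies inside Tbx5.

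Place along the gene was described for the 286 sites. Of the 21 sites within 1 kb of an end of their factor gene, 10 were in all 4 libraries and 4 at P0 alone. With the ends of all protein-coding genes taken, 31 sites lay within 1 kb of an end, and 5 of these (16.1%) were at P0 alone, against 10.1% of such sites in the genome. Of the 255 sites further away 40 (15.7%) were at P0 alone, against 18.3% in the genome. Per 100 kb of window, Pitx1 had the most sites (17.5) and Tbx5 the fewest (6.93). Between them stood Tbx15 with 15.3, Tbx4 with 14.8, Lmx1b with 13.9, Tbx3 with 9.34, Meis1 with 8.84, Meis2 with 7.88, Shox2 with 7.62 and Tbx18 with 7.44. The median over all genes was 9.82.

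At the 86 sites with a peak in all 4 libraries, fold enrichment could be compared between the passages. Fold enrichment is the pileup of fragments at the summit of a peak over the local background. It was higher at P0 at 38 sites (44.2%, 34.2 to 54.7), against 49.9% of all such sites of the genome, and higher at P8 at 9 sites (10.5%, 5.60 to 18.7), against 11.6%. Over all such sites, median fold enrichment stood at 8.28 and 8.09 in the P0 libraries against 6.43 and 7.15 in the P8 libraries, so that a library scale ran along with passage. After division by the median of the library, 23 sites (26.7%) were higher at P0, against 21.5% of all sites, and 31 (36.0%) were higher at P8, against 34.1%. The order of these 2 shares thus turned after division of fold enrichment, around these genes as over the genome. With pileup divided by the library median, 25 sites (29.1%) were higher at P0 and 21 (24.4%) at P8, against 27.7% and 32.1% of all sites.

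The ratio of P0 over P8 had a median of 1.13 over the 86 sites and 1.15 over all four-library sites, and ranged from 0.684 (a site 1578 bp above Tbx3) to 2.39 (a site between Tbx3 and Tbx5). It exceeded 2 at 4 sites (4.65%), against 1.82% of all four-library sites. After division by the library median it exceeded 2 at 0 of the 86 sites, against 0.349% of all four-library sites. The 4 sites lay between Tbx3 and Tbx5, 62843 bp below Tbx4, 35577 bp below Tbx18 and 87396 bp above Pitx1. The 16 sites within 1 kb of an end of any protein-coding gene had a median ratio of 1.04, against 1.16 at such sites of the genome, and 4 of them (25%) were higher at P0, against 57.3%. These 16 sites were weaker at P0 than such sites of the genome, with median fold enrichments of 6.71 and 6.33 against 9.04 and 9.44. Some lie at the same gene end, as at Meis1 and Shox2, so they are not independent. Their difference from the genome was not tested. The 70 sites further away had a median ratio of 1.17, against 1.14 in the genome, and 34 of them (48.6%) were higher at P0, against 47.4%. After division by the library median, 1 of the 16 sites near an end was higher at P0 (6.25%, against 18% in the genome) and 10 were higher at P8 (62.5%, against 31.5%). Of the 70 sites further away, 22 were then higher at P0 (31.4%, against 22.7%) and 21 at P8 (30.0%, against 35.0%).

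**Figure D3:**
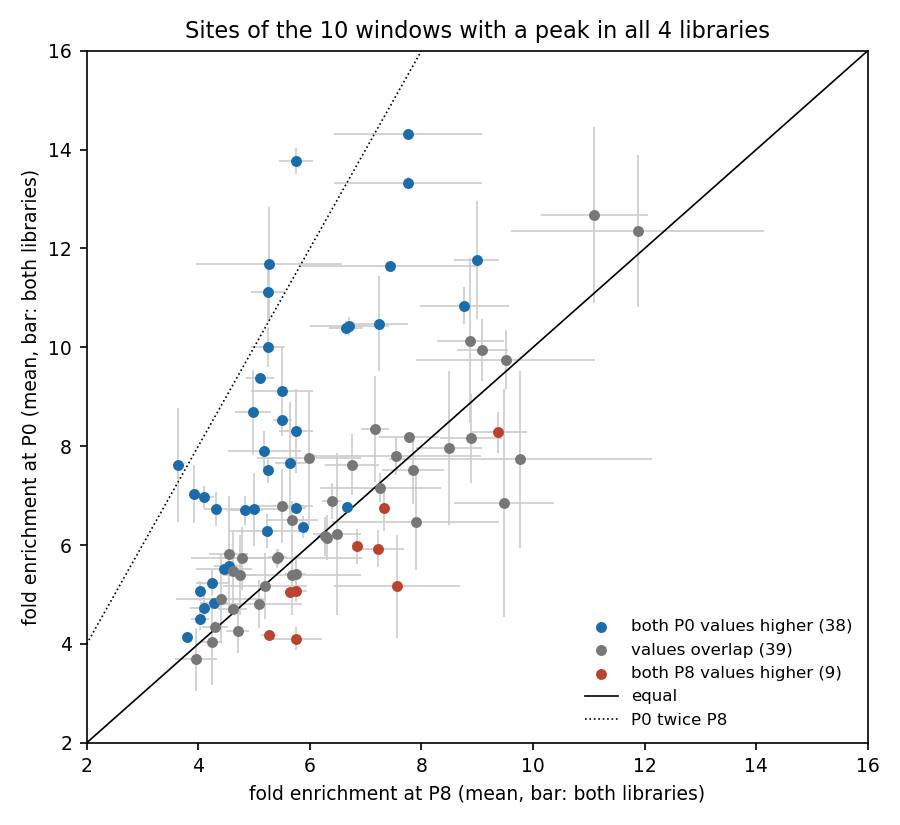
Mean fold enrichment at P0 (y axis) against P8 (x axis) at the 86 sites with a peak in all 4 libraries. Bars span the 2 libraries of a passage. At 38 sites both P0 values are higher, at 9 both P8 values are higher, and 4 sites lie above the dotted line of a ratio of 2.

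The factors of limb type were Pitx1, Tbx4 and Tbx5. Pitx1, a homeodomain factor of the hindlimb (chr13:55825044-55836190), had 33 and 21 peaks at P0 and 14 and 21 at P8. The passages overlapped, since P0 library B and P8 library B were equal. Without P0 library B or without P8 library B the overlap was gone, with ratios of 1.89 and 1.93. Its strongest site, 97252 bp below the gene and nearest to Pcbd2, had fold enrichments of 11.2 and 10.5 at P0 and 7.97 and 9.57 at P8. The site of all 4 libraries inside the gene (chr13:55831015-55831888) was at 7.25 and 7.77 at P0 and 5.26 and 5.25 at P8. It was higher at P0 as deposited and after division by the library median. Another site inside the gene (chr13:55826060-55826331) was found at P0 alone, with 3.12 and 2.90. The site 468 bp below the lower end overlapped between the passages as deposited, with 6.60 and 5.69 at P0 and 6.42 and 6.20 at P8, and was higher at P8 after division by the library median. At the upper end, a site 62 bp inside the gene had a peak in P0 library A alone (3.01), and one 578 bp above the gene had 3.17 in P0 library A and 3.51 and 4.42 at P8. A site 87396 bp above the gene was at 6.46 and 8.78 at P0 and 3.65 and 3.62 at P8, a ratio of 2.10. The strongest site of P0 alone, 13668 bp below the gene, had 5.75 and 7.14. The windows of Pitx1 also take in Txndc15, Pcbd2 and Catsper3.

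Tbx4, the T-box factor of the hindlimb (chr11:85886367-85916097), had 32 and 29 peaks at P0 and 18 and 20 at P8, a ratio of 1.61, with no overlap. Of its 34 sites, 6 were found at P0 alone and 13 in all 4 libraries. Its strongest site by the mean, 9158 bp above the gene, had fold enrichments of 11.8 and 8.48 at P0 and 8.27 and 9.47 at P8, which overlap. A site 62843 bp below the gene (chr11:85823309-85823524), nearest to Bcas3, had 12.8 and 10.5 at P0 and 3.96 and 6.57 at P8, a ratio of 2.22. The strongest site of P0 alone (chr11:85792447-85793236) had 9.11 and 8.24 and was also nearest to Bcas3. Inside the gene, a site of P0 alone lay 2041 bp from the upper end (chr11:85913540-85914056), with 8.34 and 7.53. The site at the lower end was in all 4 libraries, at 4.99 and 4.45 at P0 and 4.33 and 3.86 at P8, and overlapped after division by the library median. A site 147 bp below the gene had 4.40 and 4.64 at P0 and 3.60 in P8 library A. The window of Tbx4 also takes in Tbx2, another T-box gene of the limb, so peaks below Tbx4 cannot be given to 1 of the 2 by position.

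Tbx5, the T-box factor of the forelimb (chr5:119796514-119885220), had 17 and 15 peaks at P0 and 10 and 12 at P8, a ratio of 1.45, with no overlap. Its window held 5588 and 4132 bp in peaks at P0 and 1799 and 2459 bp at P8. Its gene ends were without peaks, but 8 sites lay inside its limits, 3 of them at P0 alone. These had 4.51 and 4.36 (chr5:119834153-119834327), 4.84 and 4.48 (chr5:119835656-119835966) and 3.85 and 4.31 (chr5:119866386-119866559). A site at chr5:119835322-119835477 had 3.08 in P0 library A and 3.90 in P8 library B. The start of Tbx5 was not matched, so whether any of these sites is a promoter was not examined. The window had 7 sites in all 4 libraries. At 5 of these 7, fold enrichment was higher at P0, and the same number stood after division by the library median. The 1 site of P8 alone among all 286 was inside Tbx5 (chr5:119867983-119868328), with fold enrichments of 6.19 and 5.38 and pileups of 14 and 12 tags. Its neighbours on either side went opposite ways. The site at chr5:119866888-119867239 had 8.31 and 7.49 at P0 and 4.53 and 5.85 at P8, and the site at chr5:119868409-119868715 had 3.87 and 4.35 at P0 and 5.28 and 6.23 at P8. Beyond the upper end of the gene, 2 sites 31291 and 47175 bp away had 10.4 and 9.61 at P0 against 4.94 and 5.56 at P8, and 11.6 and 11.7 at P0 against 5.85 and 9.04 at P8.

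**Figure D4:**
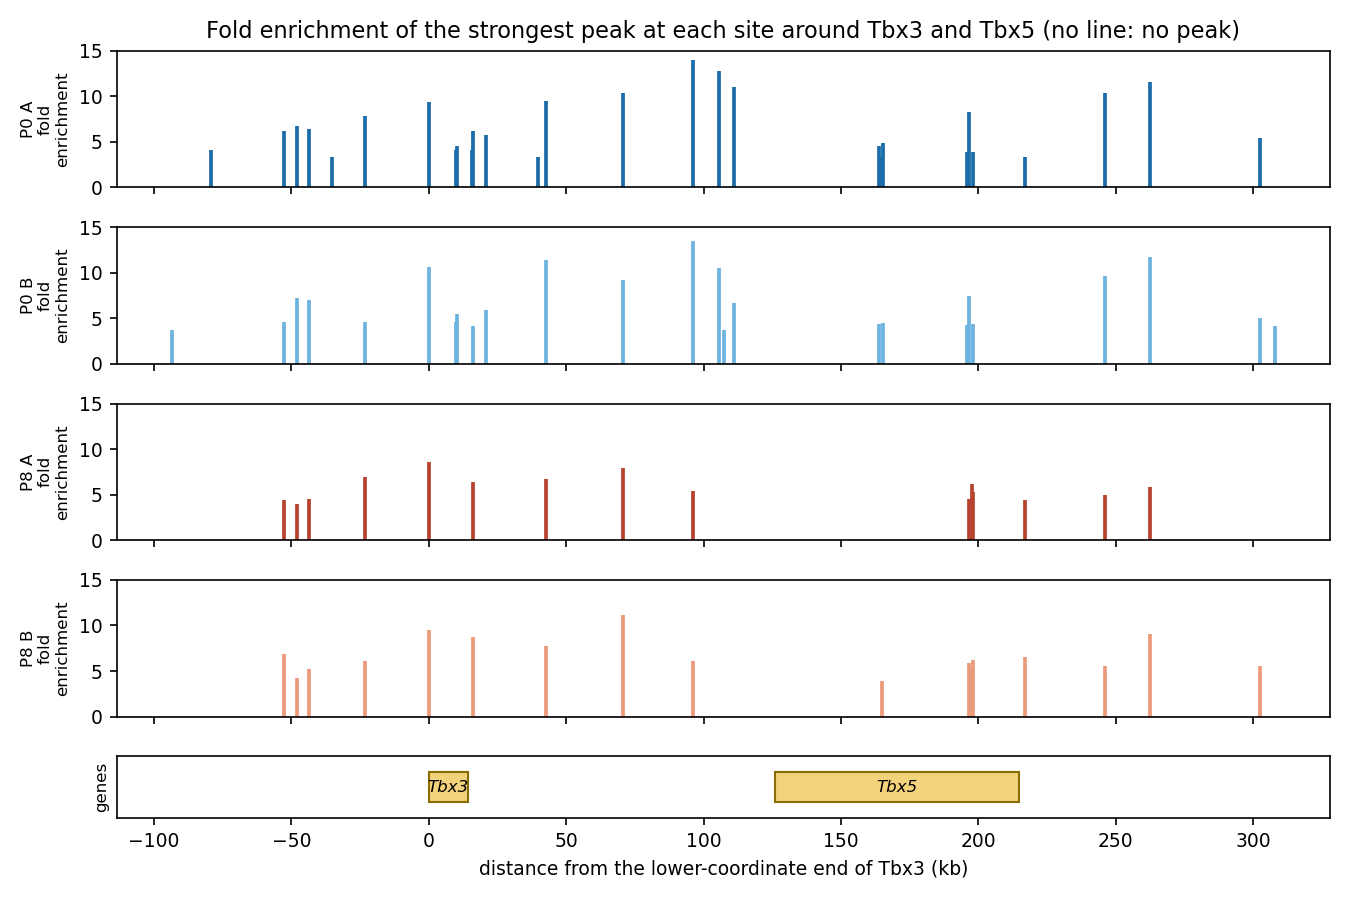
Fold enrichment of the strongest peak at each site (y axes, 1 panel for each library) around Tbx3 and Tbx5, by distance from the lower end of Tbx3 (x axis, kb). Boxes are the genes. The site 96.0 kb along is at 14.0 and 13.5 at P0 and 5.44 and 6.06 at P8, and the next 2 strong sites towards Tbx5 have no peak at P8.

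Tbx3, a T-box repressor of the limb margins (chr5:119670534-119684724), had 19 and 17 peaks at P0 and 9 and 10 at P8, a ratio of 1.89, with no overlap. The site over its lower end was strong in every library, at 9.32 and 10.6 at P0 and 8.63 and 9.55 at P8, which overlap, and was higher at P8 after division by the library median. The stretch of 111.789 kb between Tbx3 and Tbx5 holds no other protein-coding gene and held 10 sites, 4 of them in all 4 libraries and 3 at P0 alone. The strongest, at chr5:119766327-119766833, had fold enrichments of 14.0 and 13.5 at P0 and 5.44 and 6.06 at P8, with pileups of 38 and 34 tags against 10 and 11. The ratio was 2.39, the highest of the 86 four-library sites, and 1.99 after division by the library median. Next to it towards Tbx5, a site of P0 alone (chr5:119776028-119776442) had 12.7 and 10.5, and another (chr5:119781476-119781880) had 11.0 and 6.69. The first of these was the strongest site of P0 alone in the windows of both genes. A site in the same stretch, at chr5:119741117-119741591, did not separate the passages, with 10.3 and 9.15 at P0 and 7.91 and 11.1 at P8.

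Tbx15, Tbx18 and Shox2 act in the skeleton of limb and girdle. Tbx15, a T-box factor of scapula and limb cartilage (chr3:99240348-99354260), had 45 and 33 peaks at P0 and 17 and 23 at P8, a ratio of 1.95, with no overlap. It had the most sites (48), the most of P0 alone (9) and 12 in all 4 libraries. At its lower end, a site 561 bp inside the gene had 5.06 and 4.95 at P0 and no peak at P8, and beyond its upper end a site had 4.38 and 3.65 at P0 and no peak at P8. P8 was not empty there: a site that begins 979 bp inside the lower end (chr3:99241327-99241736) had 4.84 and 5.88 at P0 and 4.22 in P8 library B, whose own peak lies beyond 1 kb. A site 38 bp below the gene had a peak in P0 library A alone (4.11). Its strongest site by the mean, 18189 bp above the gene, overlapped between the passages, with 13.9 and 10.8 at P0 and 9.61 and 14.1 at P8. A site further up (chr3:99401983-99402832) was higher at P0, with 14.4 and 14.2 against 6.43 and 9.09, a ratio of 1.84 and of 1.54 after division by the library median. Inside the gene 1 of the sites was higher at P8, with 5.62 and 6.33 at P0 and 6.92 and 6.78 at P8. The window also takes in Wars2.

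Tbx18, a T-box factor of limb mesenchyme and somites (chr9:87702800-87731260), had 16 and 14 peaks at P0 and 11 and 17 at P8, a ratio of 1.07. The passages overlapped, and without P8 library A the remaining P8 library lay above both P0 libraries, a ratio of 0.882. The site over the promoter printed above was nearly equal in all libraries, at 6.83 and 6.73 at P0 and 6.67 and 6.66 at P8, a ratio of 1.02, and was higher at P8 after division by the library median. Its strongest site, 35577 bp below the gene (chr9:87666551-87667223), was not equal, with 11.8 and 10.5 at P0 and 4.94 and 5.56 at P8, a ratio of 2.12 and of 1.76 after division by the library median. The strongest of its 2 sites of P0 alone lay inside the gene, with 6.21 and 5.95. No other protein-coding gene lies in the window.

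Shox2, a homeodomain factor of the upper limb segment (chr3:66971723-66981771), had 14 and 12 peaks at P0 and 6 and 12 at P8, which overlap. Within 50 kb the passages did not overlap, with 11 and 11 peaks at P0 and 6 and 8 at P8. Without P0 library B the ratio was 1.56, and without P8 library B it was 2.17, in both cases without overlap. Its strongest site, 6869 bp below the gene (chr3:66964101-66964854), had 13.4 and 13.2 at P0 and 6.43 and 9.09 at P8, a ratio of 1.72. The site 64 bp above the gene, which reaches into the printed promoter at P0, was the 1 four-library site of Shox2 that was higher at P8 as deposited, with 4.20 and 4.16 at P0 and 5.40 and 5.13 at P8. Pileup at the same site was 37 and 33 tags at P0 and 22 and 23 at P8, so that its order depended on the measure. A site 224 bp inside the upper end had 5.58 and 5.93 at P0 and 5.25 and 5.59 at P8, which overlap, and was higher at P8 after division by the library median. Just below the gene, a site of P0 alone had 4.47 and 6.49, and another 740 bp above it had 2.89 and 3.33. Rsrc1 lies in the same window and is the nearest protein-coding gene to the sites 64 and 740 bp above Shox2, so position cannot give these sites to Shox2 alone.

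**Figure D5:**
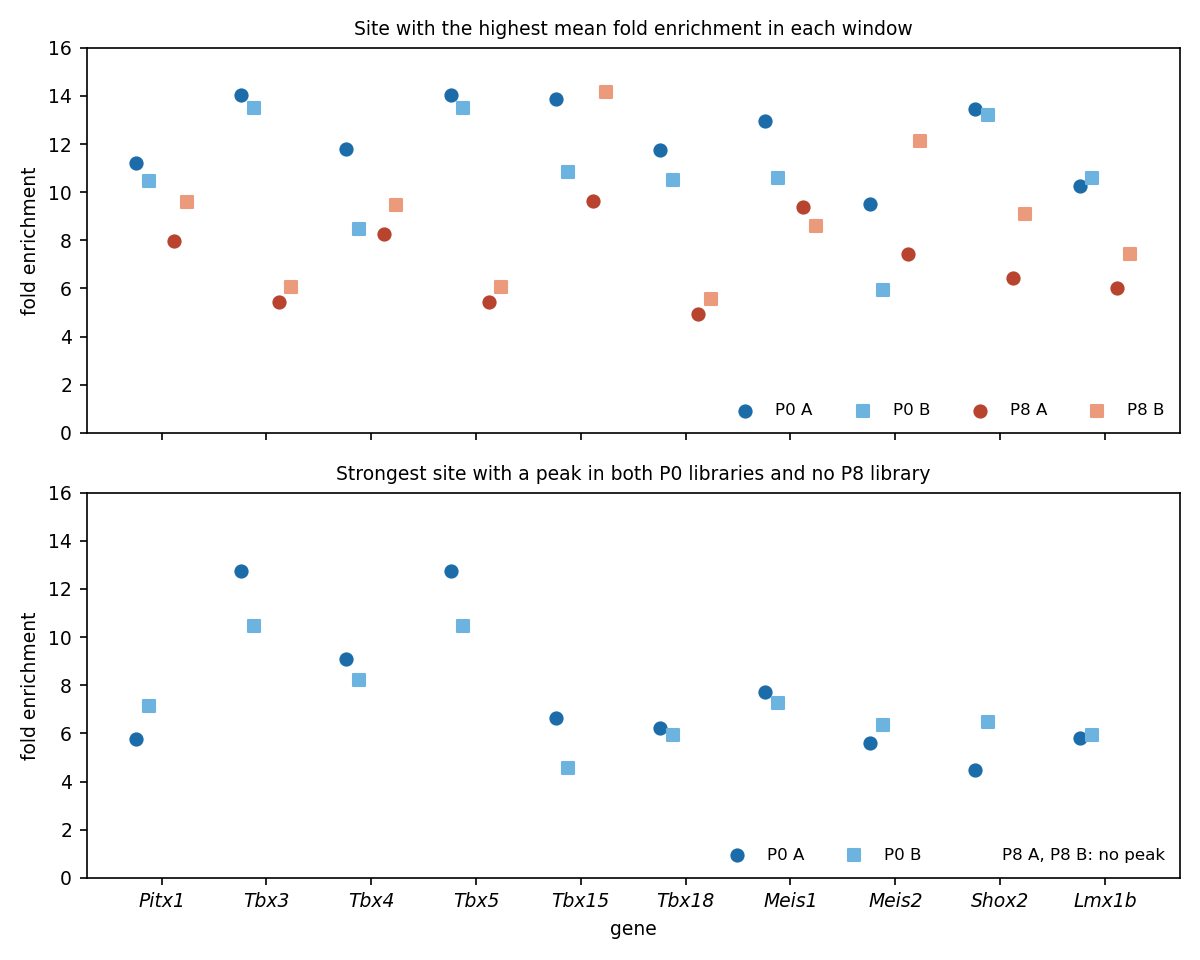
Fold enrichment (y axes) in each library at the site with the highest mean in each window (upper panel) and at the strongest site of P0 alone (lower panel), by gene (x axis). In the upper panel both P0 values are higher for 7 genes and overlap with P8 for Tbx4, Tbx15 and Meis2. After division by the library median (not drawn), P0 is higher for 5 genes, P8 for 1 gene, and the passages overlap for 4. Tbx3 and Tbx5 share both sites.

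Meis1 and Meis2 encode homeodomain partners of Hox and Pbx proteins. Meis1 (chr11:18880428-19019651) had 22 and 20 peaks at P0 and 16 and 13 at P8, a ratio of 1.45, with no overlap. Its strongest site, inside the gene (chr11:18941012-18941340), had 13.0 and 10.6 at P0 and 9.39 and 8.59 at P8, higher at P0 as deposited and overlapping after division by the library median. The four-library sites around its upper end overlapped between the passages as deposited: the one over the printed promoter stood at 6.84 and 8.20 at P0 and 8.40 and 7.30 at P8, the one over the end at 4.93 and 3.17 at P0 and 4.06 and 4.42 at P8, and the one 555 bp beyond the end at 8.25 and 8.13 at P0 and 7.24 and 8.32 at P8. After division by the library median all 3 were higher at P8. Between them, a site 254 bp inside the gene had a peak in P8 library A alone (3.46). Another site inside the gene varied more within P0 than between the passages, with 4.55 and 9.15 at P0 and 10.4 and 8.59 at P8. The strongest site of P0 alone lay inside the gene (chr11:18958316-18958872), with 7.72 and 7.25. No Meis1 site was called higher at P8 as deposited.

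Meis2 (chr2:115861264-116067537) had 26 and 19 peaks at P0 and 15 and 12 at P8, a ratio of 1.67, with no overlap. Of its 32 sites, 18 were found in 1 library, 11 of them in P0 library A. Its strongest site, inside the gene (chr2:115970190-115970732), overlapped between the passages, with 9.52 and 5.95 at P0 and 7.42 and 12.1 at P8. A site 5092 bp below the gene was higher at P0, with 8.20 and 10.0 against 4.94 and 6.06, a ratio of 1.66. The site over the upper end was weak and overlapped, with 4.02 and 5.82 at P0 and 5.22 and 3.60 at P8, also after division by the library median. The strongest of its 3 sites of P0 alone lay inside the gene, with 5.60 and 6.33.

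Lmx1b, a LIM-homeodomain factor of the dorsal limb (chr2:33560965-33641208), had 36 and 26 peaks at P0 and 14 and 17 at P8, a ratio of 2.00, with no overlap. Of its 39 sites 13 were found in P0 library A alone, 10 in all 4 libraries and 5 at P0 alone. Its strongest site, 92253 bp below the gene and nearest to Zbtb43, had 10.2 and 10.6 at P0 and 6.00 and 7.41 at P8. Near it, 2 sites were higher at P8, with 4.86 and 5.27 against 5.55 and 5.96, and with 6.30 and 5.55 against 7.69 and 6.75. Inside the gene, the site at chr2:33631499-33632039 had 6.38 and 7.07 at P0 and 4.54 and 4.10 at P8, higher at P0 also after division by the library median. The strongest site of P0 alone, 2467 bp below the gene, had 5.80 and 5.95. The median fold enrichment of all Lmx1b peaks was 4.86 in each P0 library and 4.89 and 5.05 at P8. These medians cover called peaks only, and the deeper P0 libraries had more of them. They therefore cannot show whether enrichment changed with passage. Of the 10 sites in all 4 libraries, fold enrichment was higher at P0 at 3 and at P8 at 2. After division by the library median the counts were 2 and 3.

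Other genes of limb and skeletal patterning were counted in the same way. Of a list of 29 such genes (Tbx2, the other Pitx, Pbx and Meis family members, Prrx, Msx, Dlx, Alx and further homeobox genes, Hand2 and Sall genes), 19 were higher at P0 (65.5%), 10 overlapped and 0 were higher at P8, against the 56.1% and 3.35% of all genes. The median ratio was 1.39. The window of Tbx2 shares peaks with that of Tbx4, and neighbouring genes of the list can share peaks as well, so these counts are not independent. Among those with an average of at least 10 peaks, Alx4, a homeodomain factor of the anterior limb, had the highest ratio, 2.63, with 25 and 25 peaks at P0 and 9 and 10 at P8. En1, a factor of the ventral limb ectoderm, followed at 2.29, with 17 and 15 peaks at P0 and 6 and 8 at P8. The lowest ratios were 1.0 at Pitx3, with 21 and 15 peaks at P0 and 17 and 19 at P8, and 1.02 at Pbx2, with 25 and 21 at P0 and 19 and 26 at P8.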

How the data were processed

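ATAC-seq libraries of P0 and P8 chondrocytes were sequenced by the authors with paired-end reads of 50 bp, aligned with Bowtie2 to mm10 (per the submitters' processing notes) and given to MACS2, which called peaks in each library separately. Duplicate handling and tool versions were not given in the sources used here. The deposited values of a peak are its summit pileup (a signal counted in tags, as yet unscaled), the fold enrichment (a ratio of the pileup over the local background, each with 1 added) and the −log10 p-value. A further deposited table holds the authors' own DiffBind comparison of the passages and was not used.

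Libraries were separated by peak name. Of 455071 peaks, 4641 on other sequences than the standard chromosomes were left out. Peaks were joined into sites at an overlap of at least 1 bp, and gene limits were taken from RefSeq (GRCm38.p6), a build with the chromosome coordinates of mm10. The local background was computed from pileup and fold enrichment, and a Poisson −log10 p with this background equalled the deposited one within 0.01 in 100% of peaks. For the matched background, pileup and background were scaled down to the shallowest library, with 3.38 as the lowest −log10 p allowed. Deeper libraries can give more and wider peaks, so the counts by passage over the windows are set beside those over the genome. Sums per library were compared with exact permutation tests, and shares are given with 95% Wilson intervals.

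Alternatives were a window of 50 kb, the matched background, a −log10 p of at least 10, sites nearest to the factor gene, each library left out, a reciprocal overlap of 50%, and division by the library median. The genes, gene lists and motifs were chosen with earlier results of these data known. Described are, for each gene, the site with the highest mean fold enrichment (a missing peak counted as 0), the sites within 1 kb of an end, and the strongest site of each passage alone. From the list of 29 genes, the 2 highest and 2 lowest ratios with an average of at least 10 peaks are named. Sites described for a ratio over 2, for their place inside a gene or as neighbours of such sites were chosen after their values were seen. The counting steps were tested on simulated data. The software was Python 3.11.15 with scipy 1.17.1, pandas 2.3.3, numpy 2.4.6 and matplotlib 3.10.9.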

Additional observations from a re-analysis of the deposited data

How the results depend on the processing

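Over 54 recomputed values of the sums and shares, 35 stayed within the spread of the reported value and 19 moved beyond it. With a −log10 p of at least 10, the ratio of peak number was 2.143, that of covered width 2.669, sites of P0 alone made up 31.1% and of P8 alone 0%, and four-library sites higher at P0 made up 31.0%, against 52.7% in the genome. Division by the library median gave 26.7% higher at P0 and 36.0% higher at P8 for fold enrichment, which turned their order, and 29.1% and 24.4% for pileup, against 27.7% and 32.1% in the genome. Leaving out a library gave 18.4 to 41.3% of sites at P0 alone (20.5 to 37.2% in the genome), 0.362 to 5.0% at P8 alone (2.19 to 7.6%), 50.5 to 65.9% of shared sites higher at P0 (57.2 to 66.2%) and 17.4 to 26.2% higher at P8 (16.6 to 22.9%). These shares rest on 1 library in a passage, which is a looser rule, so they are not like for like with the main shares. By gene, the order of the passages was kept in 36 of 40 recomputed ratios and in 34 of 40 with a library left out, and each change concerned Pitx1, Tbx18 or Shox2. No paired analysis was possible because the peak names carry no replicate number of the labels. With peaks kept only if callable at the background of the shallowest library, the ratio of peak number was 1.559, against 1.367 over the genome.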
